A study of Homo sapiens with 18 samples.

Results

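Metallothionein transcripts were followed in DU145 and CWR22Rv1, both established human prostate cancer cell lines, after siRNA against the transcription factors Stat3 or Stat5a/b. The genes are MT1M, MT1F, MT1G, MT1H, MT1X and MT2A, and every probe set that the platform annotation gives to exactly 1 of them was kept: 9 probe sets for 6 genes, out of 54613 probe sets tested and 19775 genes with such a probe set. The probe sets were 1 each for MT2A, MT1H and MT1M and 2 each for MT1X, MT1G and MT1F.

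Each line gave 3 groups of 3 arrays: cells given Stat3 siRNA, cells given siRNA against Stat5a and Stat5b together, and cells given scrambled siRNA, called control here. All groups, controls included, had been transfected with Lipofectamine 2000 and RNA was taken 48 h later and hybridised to Affymetrix U133 Plus 2.0 arrays, 18 in all. The triplicates were not pooled, but no label says that they came from separate cultures, so the p-values rest on a spread between samples that may be only technical. Cells had grown in medium with fetal bovine serum. Both siRNA groups of a line are set against the same control arrays, and transfection, which all groups share, has no untransfected counterpart here.

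Metallothioneins are small cysteine-rich proteins that bind zinc, copper and cadmium. Zinc activates the transcription factor MTF1, which binds metal response elements in metallothionein promoters and in that of SLC30A1, the exporter that carries zinc out of the cell. Glucocorticoids and, in rodent liver, interleukin-6 acting through Stat3 are further inducers, and normal prostate epithelium is known for its high zinc content.

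The 6 genes lie in 1 cluster on chromosome 16, where the RefSeq order runs MT4, MT3, MT2A, MT1L, MT1E, MT1M, MT1JP, MT1A, MT1DP, MT1CP, MT1B, MT1F, MT1G, MT1H, MT1IP and MT1X, with pseudogenes among the coding genes. Upstream sequences of 3 of the 6 genes were at hand from RefSeq (GRCh38.p14), and are shown because the same short element recurs in each. The 250 bases before the transcription start are given 5′ to 3′ on the plus strand, and capitals mark each match to the metal response element core, TGCACNC or TGCGCNC on either strand.
MT2A, chr16:56608334-56608583: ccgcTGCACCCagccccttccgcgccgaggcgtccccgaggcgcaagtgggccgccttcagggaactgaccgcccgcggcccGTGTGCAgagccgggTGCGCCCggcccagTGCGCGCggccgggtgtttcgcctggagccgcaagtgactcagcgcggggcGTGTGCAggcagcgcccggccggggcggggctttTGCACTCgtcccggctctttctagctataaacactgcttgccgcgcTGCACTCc
MT1X, chr16:56682220-56682469: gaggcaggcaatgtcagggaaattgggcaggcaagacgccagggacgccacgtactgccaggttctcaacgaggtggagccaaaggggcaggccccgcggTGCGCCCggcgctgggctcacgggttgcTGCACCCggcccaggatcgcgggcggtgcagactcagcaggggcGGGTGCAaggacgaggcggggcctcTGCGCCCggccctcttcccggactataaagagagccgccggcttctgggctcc
MT1H, chr16:56669564-56669813: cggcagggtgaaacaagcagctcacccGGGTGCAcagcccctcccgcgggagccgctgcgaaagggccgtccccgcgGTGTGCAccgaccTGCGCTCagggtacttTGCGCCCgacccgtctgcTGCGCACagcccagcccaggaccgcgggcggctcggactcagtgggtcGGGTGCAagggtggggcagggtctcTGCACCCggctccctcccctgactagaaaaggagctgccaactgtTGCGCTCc

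The MT1H window held 8 matches, that of MT2A 7 and that of MT1X 4. Of the 35116 RefSeq windows of the same length, 24.8% held at least 1 match, 0.37% at least 4 and 0.0313% at least 7. The general STAT motif TTCNNNGAA, also searched on both strands, matched once in the MT2A window, 194 bases before the start and clear of the capitals, and in neither of the other windows. It occurred in 6.57% of all windows. These matches describe the letters of the windows and say nothing about which factor binds there.

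Values are log2 expression as deposited, so a difference of 1 is a doubling. Signals of different probe sets are not compared as amounts of transcript, since probes differ in affinity, and dim or bright describes only the signal on the array. Of the 9 probe sets, 7 carry the suffix _x_at, by which the manufacturer marks probes that can hybridise with related transcripts, so each may mix several metallothioneins. One of them, the MT1X probe set 204326_x_at, is annotated through an accession that RefSeq now assigns to the pseudogene MT1L. A difference was called where limma's adjusted p was under 0.05, with adjustment over all probe sets of a comparison.

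Before the metallothioneins, the arrays were checked against their labels. STAT3 (208992_s_at) fell with Stat3 siRNA by 1.62 in DU145 and by 1.13 in CWR22Rv1, and 208991_at and 225289_at fell too. The remaining STAT3 probe set, 243213_at, differed by -0.36 in DU145 and -0.06 in CWR22Rv1 and was not called, and in DU145 given Stat5a/b siRNA it rose by 1.31 (adjusted p = 0.032, limma). STAT5B (212549_at) fell with Stat5a/b siRNA by 1.36 in DU145 and by 0.91 in CWR22Rv1, as did 205026_at and 212550_at, while 1555086_at and 1555088_x_at differed by 0.05 to 0.42 and were not called. STAT5A differed by -0.30 and -0.34 in these lines without being called (adjusted p = 0.134 and 0.210, limma). Of 6 luminal prostate genes measured, 3 were higher and 2 lower in CWR22Rv1 controls than in DU145 controls. KLK2, HOXB13 and TMPRSS2 averaged 10.1, 9.35 and 8.49 in CWR22Rv1 controls, against 3.54, 4.44 and 4.81 in DU145 controls, KRT8 and KRT18 averaged 10.11 and 12.57 in CWR22Rv1, against 11.01 and 13.01 in DU145, and KLK3 averaged 6.76 in CWR22Rv1 and 6.69 in DU145. Of 5 mesenchymal genes, 3 were higher and 1 lower in CWR22Rv1: VIM averaged 7.03 in CWR22Rv1 and 13.1 in DU145, LUM 8.12 in CWR22Rv1 and 2.56 in DU145, and COL1A1 7.85 in CWR22Rv1 and 7.18 in DU145. Markers of these classes thus did not all run one way between the lines. The pan-leukocyte gene PTPRC lay between 2.96 and 3.16 and the endothelial gene CDH5 between 3.28 and 3.46 in all 6 group means. Of 3 leukocyte markers measured, the monocyte receptor gene CD14 fell with both siRNAs in DU145, to 5.02 with Stat3 siRNA and 5.16 with Stat5a/b siRNA, against 6.12 in controls, and its part in the results below was not tested.

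Metallothionein transcripts were much lower in CWR22Rv1 than in DU145. MT2A, abundant in most human cells, had 10.03, 10.01 and 10.05 in CWR22Rv1 controls, against 12.32, 12.23 and 12.94 in DU145 controls. That is a difference of -2.47 ± 0.15 (SE), with limma's adjusted p = 1.93e-10, and the groups lay far apart. MT1M, a further isoform of the cluster, had 3.35, 2.88 and 3.09 in CWR22Rv1 controls, against 6.09, 5.98 and 6.79 in DU145 controls, and the fit gave -3.18 ± 0.30 (adjusted p = 8.17e-08, limma). The CWR22Rv1 values of MT1M stood between the 11.8th and 21.2nd percentiles of their arrays, and how far they lie above background is unknown, so the fitted difference is read as a bound: at most 11.0% of the DU145 level. In bulk RNA, fewer expressing cells and less RNA per cell cannot be told apart.

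In that comparison of controls, 8 of the 9 probe sets were lower in CWR22Rv1 and none was higher. MT1M differed as given above, and the other 7 by -2.62 (MT1F 217165_x_at) to -1.47 (MT1X 204326_x_at). Across all probe sets 47.8% were called, so a call by itself says little here. The median difference was -2.47 for the members and 0.02 for all probe sets. The exception was the second MT1G probe set, 210472_at, which lay between the 15.2nd and 24.6th percentiles on all 18 arrays and differed by -0.27 (adjusted p = 0.078, limma). For the other 8, each of the 9 CWR22Rv1 arrays lay below each of the 9 DU145 arrays, whatever the siRNA, against 32.3% of all probe sets without overlap between the lines in either direction. The MT1E probe sets 212859_x_at and 216336_x_at, outside the set but of the same cluster, differed by -3.70 and -2.67, and MT1HL1 (211456_x_at) by -2.57. By their suffix they may read transcripts of the members. MT3 and MT4, which are known from brain and squamous epithelium, differed by 0.10 and 0.18 and were not called (adjusted p = 0.473 and 0.213, limma).

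**Figure D1:**
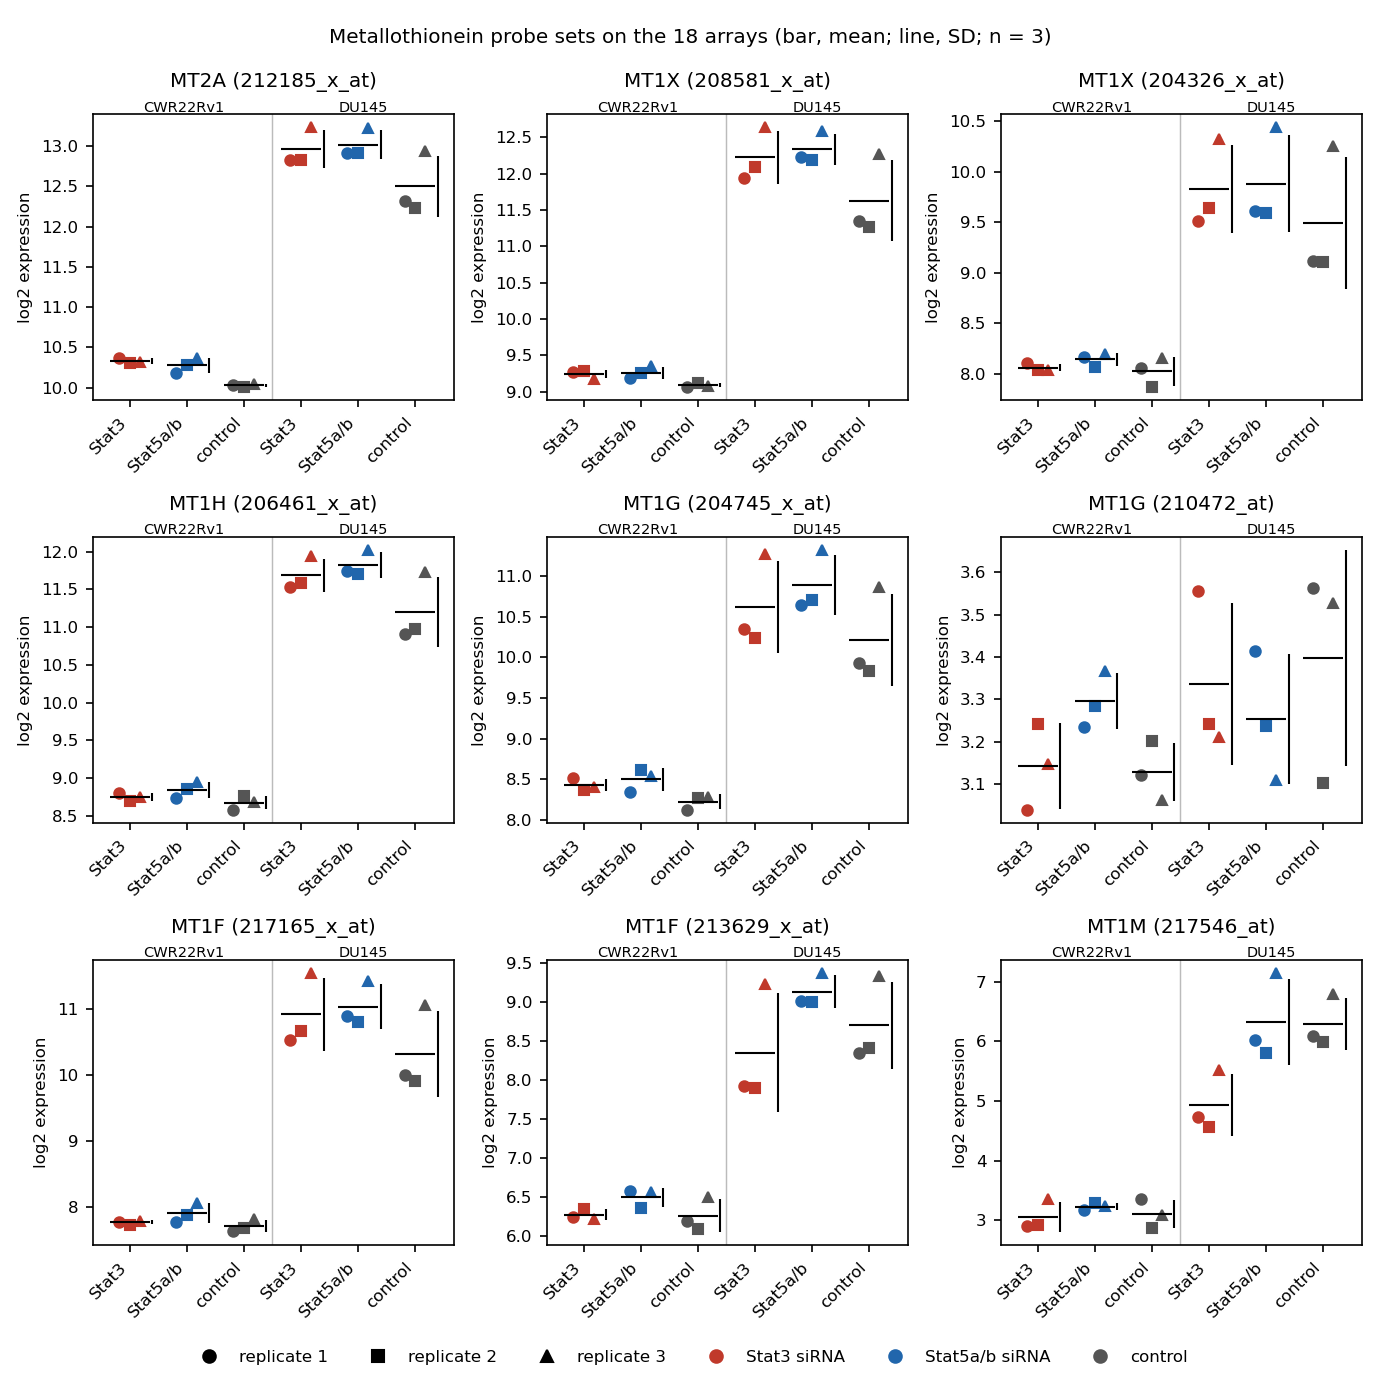
Log2 expression of each of the 9 metallothionein probe sets on every array, with CWR22Rv1 at the left and DU145 at the right of each panel and Stat3 siRNA, Stat5a/b siRNA and control in that order (bar, mean of 3 arrays; line, SD; symbols, replicate number). Apart from 210472_at of MT1G, all CWR22Rv1 arrays sit below all DU145 arrays, and the DU145 triangles, replicate 3, are the highest of their group.

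The 3 DU145 arrays numbered 3 stood apart in these genes. Replicate 3 was the highest of its group in all 3 DU145 groups for 8 of the 9 probe sets, against 8.73% of all probe sets. For MT2A the gap between replicate 3 and the mean of replicates 1 and 2 was 0.40 with Stat3 siRNA, 0.31 with Stat5a/b siRNA and 0.66 in controls. Averaged over the 3 groups, the gaps of these 8 ran from 0.46 for MT2A to 0.96 for MT1M, and at most 0.804% of all probe sets had a larger one. The dim MT1G probe set had a gap of -0.07. In CWR22Rv1 no array stood apart in this way: the mean deviation of the members from their group ranged from -0.07 to 0.07 there, against -0.32 to 0.56 in DU145.

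SLC30A1 shared the gap, at 0.85 on average, with 0.0549% of all probe sets above it. The zinc importer SLC39A10, which zinc is known to repress through MTF1 in mice, went the other way at -0.46, and 99.4% of probe sets were above it. MTF1 itself had a gap of 0.06. The 3′ minus 5′ difference of the GAPDH control probe sets, a measure of RNA integrity, was 0.07 with Stat3 siRNA, 0.05 with Stat5a/b siRNA and 0.04 in controls for replicate 3, and 0.11 to 0.15 on the other DU145 arrays. The same difference for ACTB did not set replicate 3 apart with siRNA: it was 0.54 with Stat3 siRNA, 0.62 with Stat5a/b siRNA and 0.45 in controls for replicate 3, and 0.52 to 0.63 on the other DU145 arrays. The parts of zinc, glucocorticoids and RNA quality in the gap were not tested. Since replicate 3 widens the spread in all 3 DU145 groups, DU145 counts are also given without these arrays, an alternative chosen after seeing the data. The arrays were picked by these same genes, so leaving them out narrows the spread of the members in particular. The share over all probe sets is therefore not a like baseline for those counts, and no result is read from them.

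**Figure D2:**
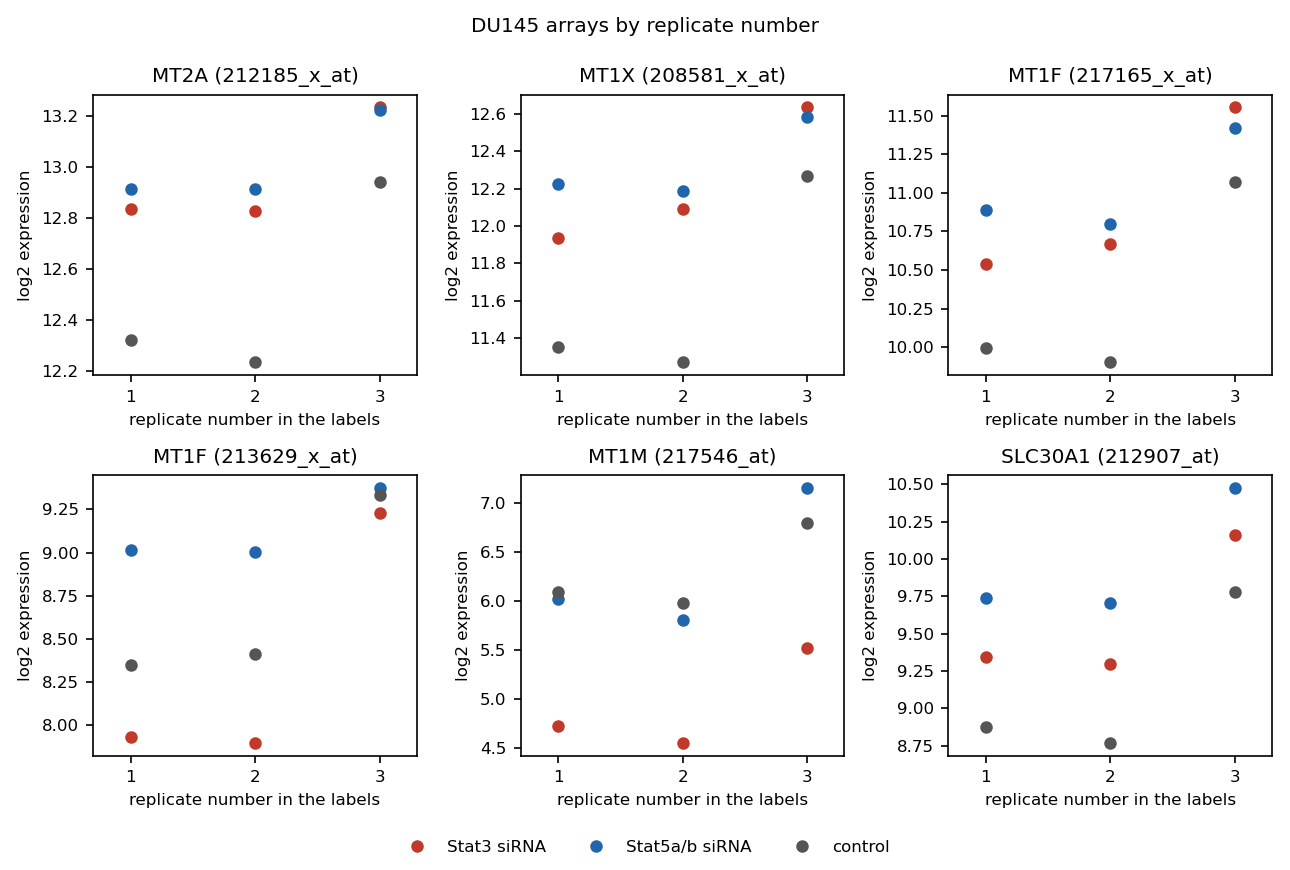
Log2 expression of 5 metallothionein probe sets and of SLC30A1 on the 9 DU145 arrays, by the replicate number in the labels (red, Stat3 siRNA; blue, Stat5a/b siRNA; grey, control; 1 point per array). Replicate 3 lies highest in each group in every panel, while MT1M with Stat3 siRNA lies below the control of the same number each time.

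With Stat3 siRNA in DU145, MT1M fell and the brighter probe sets did not pass the test, though most were higher. MT1M had 4.73, 4.56 and 5.53 with Stat3 siRNA, against 6.09, 5.98 and 6.79 in controls. All 3 Stat3 arrays lay below all 3 control arrays, and same-numbered arrays differed by -1.36, -1.43 and -1.27. The change was -1.35 ± 0.30, or 39.2% of the control level (adjusted p = 0.009, limma).

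MT2A had 12.83, 12.83 and 13.23 with Stat3 siRNA, against 12.32, 12.23 and 12.94 in controls, a difference of 0.47 ± 0.15 (adjusted p = 0.066). MT1X (208581_x_at) had 11.94, 12.09 and 12.63 with Stat3 siRNA, against 11.35, 11.27 and 12.27 in controls, a difference of 0.59 ± 0.21 (adjusted p = 0.094). In both genes control replicate 3 lay above at least 1 array with Stat3 siRNA, so the groups overlapped. MT1H had 11.53, 11.58 and 11.94 with Stat3 siRNA, against 10.90, 10.97 and 11.73 in controls, and overlapped in the same way (0.48 ± 0.17, adjusted p = 0.090). MT1G (204745_x_at) differed by 0.41, the second MT1X probe set by 0.34 and the dim MT1G probe set by -0.06, none of them called.

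The MT1F probe sets differed with opposite signs. 217165_x_at had 10.54, 10.67 and 11.55 with Stat3 siRNA, against 9.99, 9.90 and 11.07 in controls, a difference of 0.60 ± 0.27 (adjusted p = 0.213). 213629_x_at had 7.93, 7.90 and 9.23 with Stat3 siRNA, against 8.35, 8.41 and 9.33 in controls, a difference of -0.35 ± 0.29 (adjusted p = 0.563). In every same-numbered pair 217165_x_at was higher with Stat3 siRNA and 213629_x_at lower, so MT1F has no settled direction here.

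Of the 9 probe sets 1 was thus called, against 9.02% of all probe sets, and 1 was without overlap between the 6 arrays, against 20.8%. The median difference was 0.41 for the members and 0.00 for all probe sets, and 5 members had an unadjusted p under 0.05. Same-numbered Stat3 and control arrays deviated together over all probe sets (r = 0.14, 0.19 and 0.39). Stat3 replicate 2 and control replicate 1 did so too (r = 0.14), so the pairing of replicates 1 and 2 is unsure. The fit with the replicate number as a block, put on all arrays of both lines, is given as well and depends on that pairing. It called 10.3% of all probe sets and 7 of the 9 members: MT1M lower (adjusted p = 6.72e-05), and MT2A (adjusted p = 0.003), both MT1X probe sets, MT1H, MT1G 204745_x_at and MT1F 217165_x_at higher. Without replicate 3 of the DU145 groups, 8 were called, against 8.31% of all probe sets: the 6 higher ones and MT1M joined by MT1F 213629_x_at, lower by 0.47 (adjusted p = 0.026). Without control replicate 3 alone, 5 were called, and the 1 call was lost when DU145 was fitted alone, where MT1M had an adjusted p of 0.069.

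With Stat5a/b siRNA in DU145, MT2A, MT1X and MT1H rose and MT1M did not differ detectably. MT2A had 12.91, 12.91 and 13.22 with Stat5a/b siRNA, against 12.32, 12.23 and 12.94 in controls, a rise of 0.52 ± 0.15 or 1.43-fold (adjusted p = 0.026, limma). MT1X (208581_x_at) had 12.23, 12.19 and 12.58 with Stat5a/b siRNA, against 11.35, 11.27 and 12.27 in controls, a rise of 0.70 ± 0.21 or 1.63-fold (adjusted p = 0.029). MT1H had 11.74, 11.70 and 12.02 with Stat5a/b siRNA, against 10.90, 10.97 and 11.73 in controls, a rise of 0.62 ± 0.17 or 1.53-fold (adjusted p = 0.019). In all 3 genes the third control array reached into the range of the Stat5a/b arrays, and the rise was smallest between the arrays numbered 3.

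MT1G (204745_x_at) had 10.64, 10.71 and 11.32 with Stat5a/b siRNA, against 9.93, 9.84 and 10.86 in controls, a difference of 0.68 ± 0.26 that was not called (adjusted p = 0.094). MT1F differed by 0.71 (217165_x_at, adjusted p = 0.089) and 0.43 (213629_x_at, adjusted p = 0.361), here with 1 sign. MT1M had 6.02, 5.81 and 7.15 with Stat5a/b siRNA, against 6.09, 5.98 and 6.79 in controls, a difference of 0.04 with a 95% interval of -0.60 to 0.68. The second MT1X probe set differed by 0.39 and the dim MT1G probe set by -0.14.

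In all, 3 of the 9 probe sets were called, each higher, against 15.6% of all probe sets, and 0 of 9 were without overlap, against 27.5%. The median difference was 0.52 for the members and 0.00 for all probe sets. The calls rest on single arrays: 0 were left without control replicate 1, without control replicate 2, without Stat5a/b replicate 3 or with DU145 fitted alone, and 6 were called without control replicate 3. Without replicate 3 of all DU145 groups, 7 were called, against 18.4% of all probe sets, each higher: all but MT1M and the dim MT1G probe set.

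**Figure D3:**
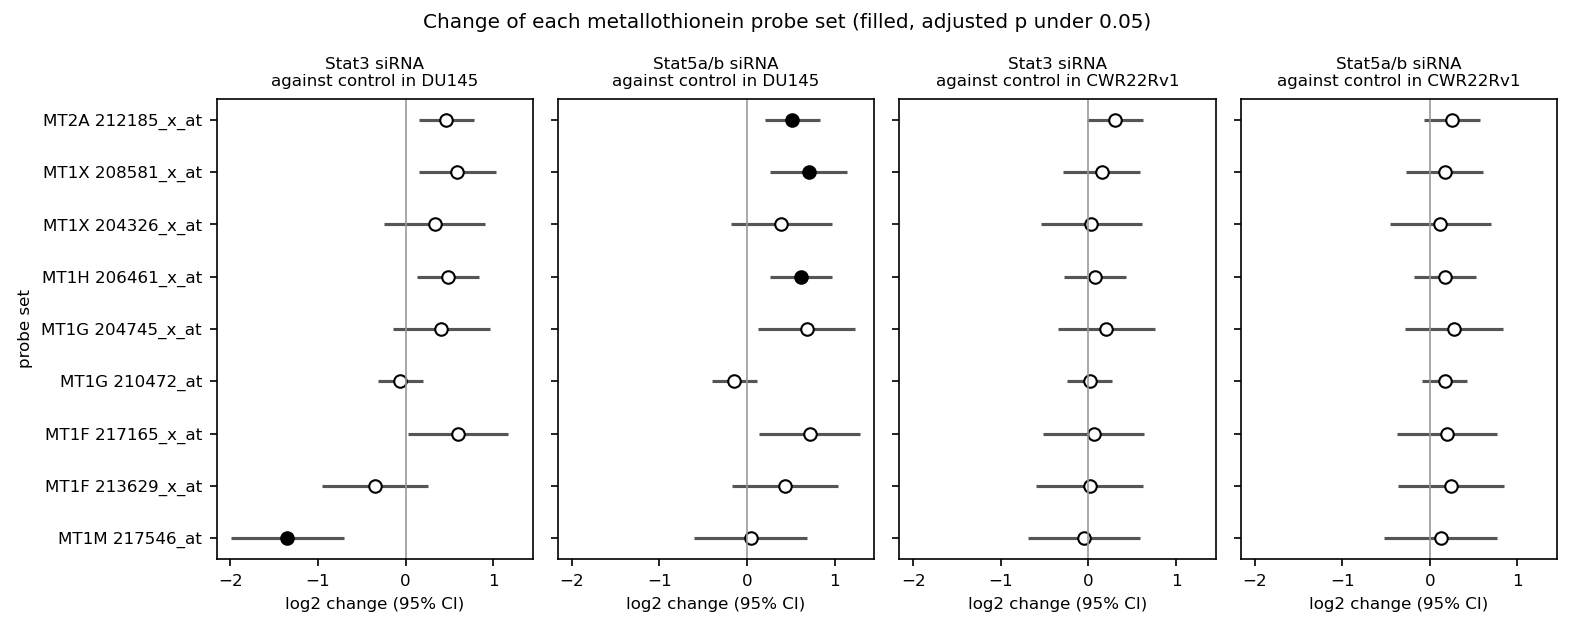
Log2 change of each metallothionein probe set with siRNA against the control of the same line (x axis; point, estimate; line, 95% confidence interval from limma; filled, adjusted p under 0.05), in DU145 in the left panels and CWR22Rv1 in the right. MT1M lies at -1.35 with Stat3 siRNA in DU145 and near 0 elsewhere, MT2A, MT1X 208581_x_at and MT1H are filled with Stat5a/b siRNA in DU145, and no CWR22Rv1 point is filled.

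Set against each other in DU145, the siRNAs separated MT1M from the rest. MT1M was higher with Stat5a/b siRNA than with Stat3 siRNA by 1.39 ± 0.30, or 2.62-fold (adjusted p = 0.005, limma), and no Stat5a/b array reached down to a Stat3 array. It was the 1 call among the 9, against 14.4% of all probe sets. MT1F 213629_x_at averaged 9.13 with Stat5a/b siRNA (SD 0.21, n = 3) and 8.35 with Stat3 siRNA (SD 0.76, n = 3), a difference of 0.78 ± 0.29 in the limma fit (adjusted p = 0.084). MT2A differed by 0.05, with a 95% interval of -0.27 to 0.37, and MT1X 208581_x_at by 0.11, with an interval of -0.33 to 0.55. Without replicate 3 of the DU145 groups, 3 were called, against 16.6% of all probe sets: MT1M, MT1F 213629_x_at and MT1G 204745_x_at.

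In CWR22Rv1, no metallothionein probe set passed the test with either siRNA, though MT2A was higher on every siRNA array than on every control array. MT2A had 10.37, 10.31 and 10.31 with Stat3 siRNA and 10.18, 10.28 and 10.37 with Stat5a/b siRNA, against 10.03, 10.01 and 10.05 in controls. The differences were 0.30 (95% interval -0.01 to 0.62, adjusted p = 0.437) and 0.25 (-0.06 to 0.57, adjusted p = 0.530, limma). The fit shares 1 estimate of the spread over both lines, and the SD of MT2A was 0.02 in CWR22Rv1 controls and 0.38 in DU145 controls. With CWR22Rv1 fitted alone, MT2A was called with Stat3 siRNA (adjusted p = 0.026), against 4.30% of all probe sets, and with Stat5a/b siRNA (adjusted p = 0.042), against 6.02%, and no other member was.

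MT1X (208581_x_at) had 9.27, 9.29 and 9.18 with Stat3 siRNA and 9.19, 9.25 and 9.35 with Stat5a/b siRNA, against 9.07, 9.13 and 9.08 in controls, differences of 0.15 and 0.17. MT1G (204745_x_at) had 8.51, 8.37 and 8.40 with Stat3 siRNA and 8.35, 8.62 and 8.54 with Stat5a/b siRNA, against 8.12, 8.26 and 8.29 in controls, differences of 0.20 and 0.28. Like MT2A, both were without overlap with either siRNA. The other members differed by -0.05 to 0.08 with Stat3 siRNA and by 0.12 to 0.24 with Stat5a/b siRNA, MT1M at its dim level by -0.05 and 0.12.

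With Stat3 siRNA in CWR22Rv1, 0 of 9 were called in the limma fit, against 2.00% of all probe sets, 0 had an unadjusted p under 0.05, and 3 were without overlap, against 26.0%. With Stat5a/b siRNA, 0 of 9 were called, against 3.10%, 0 had an unadjusted p under 0.05, and 4 were without overlap, against 25.7%, the dim MT1G probe set being the fourth. Between the siRNAs, 0 of 9 were called, against 6.10%, and 0 had an unadjusted p under 0.05.

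The difference between the lines in the response was tested as an interaction. For Stat3 siRNA, 0 of 9 probe sets were called, against 0.895% of all, and 1 had an unadjusted p under 0.05: the MT1M response in CWR22Rv1 exceeded that in DU145 by 1.30 ± 0.43 (adjusted p = 0.188, limma), with MT1M dim on the CWR22Rv1 arrays. For Stat5a/b siRNA, 0 of 9 were called, against 5.49%, and 0 had an unadjusted p under 0.05. The CWR22Rv1 minus DU145 difference in response was -0.53 ± 0.29 for MT1X 208581_x_at (adjusted p = 0.351) and -0.44 ± 0.24 for MT1H (adjusted p = 0.334). Without replicate 3 of the DU145 groups, 4 were called for Stat3 siRNA, against 1.39% of all probe sets: MT1M positive, and MT1X 208581_x_at, MT1H and MT1F 217165_x_at negative. For Stat5a/b siRNA 5 were called, against 8.17%, each negative, the sign of a smaller response in CWR22Rv1. Those arrays were left out because they stood apart in these genes, so these calls cannot decide whether the lines respond differently.

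Ordered by group mean, DU145 with Stat5a/b siRNA was highest for 8 of the 9 probe sets. For MT2A, both MT1X probe sets, MT1H, MT1G 204745_x_at and MT1F 217165_x_at it was followed by DU145 with Stat3 siRNA, then DU145 control, and then the CWR22Rv1 groups with the control lowest. Among these neighbours the DU145 siRNA groups did not differ by the test, and in CWR22Rv1 neither did any pair of groups. The step from DU145 control to DU145 with Stat3 siRNA was not called in the main fit for any of these probe sets. DU145 with Stat5a/b siRNA was called higher than DU145 control for MT2A, MT1H and MT1X 208581_x_at, but not for the others of these. For MT1M and MT1F 213629_x_at, DU145 control came before DU145 with Stat3 siRNA, and the step between them was called for MT1M only. The dim MT1G probe set had DU145 control highest, and its CWR22Rv1 and DU145 arrays overlapped.

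Over the 18 arrays, with each line's mean subtracted, the 6 brighter _x_at probe sets of MT2A, MT1X, MT1H, MT1G and MT1F (217165_x_at) correlated with each other at r = 0.84 to 0.98. These points share arrays and, as _x_at probe sets, possibly transcripts. MT1M, whose probe set lacks that suffix, correlated with those 6 at r = 0.12 to 0.39 and with MT1F 213629_x_at at 0.75. The dim MT1G probe set correlated with the 6 at r = -0.18 to -0.08. The high DU145 replicate 3 enters each of these values.

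Other metallothioneins were measured by 5 single-symbol probe sets of 4 genes. MT1E (216336_x_at) had 10.92, 10.84 and 11.44 with Stat5a/b siRNA in DU145, against 10.07, 10.01 and 11.03 in controls, a rise of 0.70 ± 0.23 (adjusted p = 0.046, limma). Its other probe set, 212859_x_at, differed by 0.54 (adjusted p = 0.089). MT1HL1 rose by 0.54 (adjusted p = 0.035) and MT4 by 0.41 (adjusted p = 0.017) in the same comparison. For Stat3 siRNA in DU145, 0 of the 5 were called, but the fit with the replicate block called 3: MT1E 216336_x_at, higher by 0.64 (adjusted p = 6.14e-04), MT1E 212859_x_at, by 0.39 (adjusted p = 0.007), and MT1HL1, by 0.37 (adjusted p = 0.014). In CWR22Rv1 none of the 5 was called with either siRNA in the main fit. MT1E 212859_x_at had 8.61, 8.70 and 8.69 with Stat5a/b siRNA there, against 8.01, 8.15 and 8.09 in controls. The groups did not overlap, and the difference was 0.58 (adjusted p = 0.172, limma, and 0.002 with the replicate block). With Stat3 siRNA it differed by 0.34 (adjusted p = 0.574, limma, and 0.049 with the block). The block called no other of the 5 in CWR22Rv1, where the replicate numbers were not held to pair samples.

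By the probe set 227150_at, MTF1, the zinc-sensing activator of the metallothioneins, rose with both siRNAs in both lines. Its other probe sets had nearly the same mean over the 18 arrays (6.99 and 6.95, against 7.03) and were not called in CWR22Rv1. The probe set 227150_at had 7.10, 7.16 and 6.96 with Stat3 siRNA and 7.37, 7.29 and 7.70 with Stat5a/b siRNA in DU145, against 6.35, 6.35 and 6.33 in controls. The rises were 0.73 ± 0.09 (adjusted p = 4.72e-05) and 1.11 ± 0.09 (adjusted p = 4.34e-07, limma). In CWR22Rv1 it had 7.26, 7.25 and 7.41 with Stat3 siRNA and 7.20, 7.20 and 7.23 with Stat5a/b siRNA, against 6.76, 6.82 and 6.77 in controls, rises of 0.52 (adjusted p = 0.005) and 0.43 (adjusted p = 0.013). No siRNA array overlapped a control array in either line.

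The other MTF1 probe sets changed less. In DU145 205322_s_at rose by 0.35 with Stat3 siRNA and by 0.65 with Stat5a/b siRNA, and 205323_s_at differed by 0.16 (adjusted p = 0.267) and rose by 0.57. In CWR22Rv1 both differed by 0.05 to 0.16. By 227150_at the rise with Stat5a/b siRNA was smaller in CWR22Rv1 than in DU145 by 0.68 ± 0.13 (adjusted p = 0.005 for the interaction). By the same probe set MTF1 was higher in CWR22Rv1 controls than in DU145 controls by 0.44, the reverse of the metallothioneins. The other MTF1 probe sets were not compared between the lines here.

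SLC30A1 had 9.74, 9.71 and 10.48 with Stat5a/b siRNA in DU145, against 8.88, 8.77 and 9.78 in controls, a rise of 0.83 ± 0.25 (adjusted p = 0.032, limma), while its other bright probe set differed by 0.74 (adjusted p = 0.068). With Stat3 siRNA it had 9.35, 9.29 and 10.16, a difference of 0.46 from control (adjusted p = 0.319, and 7.33e-04 with the replicate block). In CWR22Rv1 it had 10.06, 10.03 and 10.12 with Stat3 siRNA and 10.45, 10.44 and 10.39 with Stat5a/b siRNA, against 9.84, 9.84 and 9.77 in controls. These differences of 0.25 and 0.61 were without overlap but not called (adjusted p = 0.792 and 0.275, limma). The other bright probe set, 228181_at, differed there by -0.05 and 0.34, and by 0.28 with Stat3 siRNA in DU145, none of them called. Unlike the metallothioneins, SLC30A1 was higher in CWR22Rv1 controls than in DU145 controls, by 0.68 (adjusted p = 0.034, limma). Other genes ran the same way as the metallothioneins. Of 6 measured genes of metal and oxidant stress, taken up below, 5 were called lower in CWR22Rv1 controls and 0 higher, against 47.8% of all probe sets called. HMOX1 averaged 6.40 in CWR22Rv1 controls and 9.88 in DU145 controls.

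The gene lists that follow were tested by 1 probe set per gene, and their counts stand beside the share called over all probe sets of the same comparison. Of 10 zinc exporters, of the SLC30 family, 1 was lower with Stat3 siRNA in DU145, SLC30A5, which fell by 0.42, against 9.02% of all probe sets. With Stat5a/b siRNA in DU145, SLC30A1 and SLC30A8 were higher, the second by 0.41, and SLC30A5 fell by 0.34, making 3 of 10 called, against 15.6%. SLC30A8 was dim, with means of 3.80 in that group and 3.39 in DU145 controls. In CWR22Rv1, 0 were called with Stat3 siRNA, against 2.00%, and 3 with Stat5a/b siRNA, against 3.10%: SLC30A4 rose by 0.44, and SLC30A7 and SLC30A10 fell by 0.55 and 0.45.

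Of 14 zinc importers, of the SLC39 family, 4 were called lower and 0 higher with Stat5a/b siRNA in DU145, against 15.6% of all probe sets called in either direction. SLC39A1, which takes up zinc in prostate cells, had 7.40, 7.43 and 7.31 with Stat5a/b siRNA, against 8.74, 8.83 and 8.75 in controls, a fall of 1.40 ± 0.08 (adjusted p = 1.32e-08, limma). SLC39A11 fell by 1.26 and SLC39A10 by 0.68. With Stat3 siRNA in DU145, 3 fell and 0 rose, against 9.02% called: SLC39A9 by 0.62, SLC39A8 by 0.48 and SLC39A14 by 0.30. In CWR22Rv1, SLC39A14 was the 1 importer called with Stat3 siRNA, where it fell by 0.45, against 2.00% of all probe sets, and SLC39A1 and SLC39A11 fell with Stat5a/b siRNA, by 0.71 and 0.36, against 3.10%. The median of the importers was -0.16 with Stat5a/b siRNA in DU145, against 0.01 over 1 probe set for every gene.

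**Figure D4:**
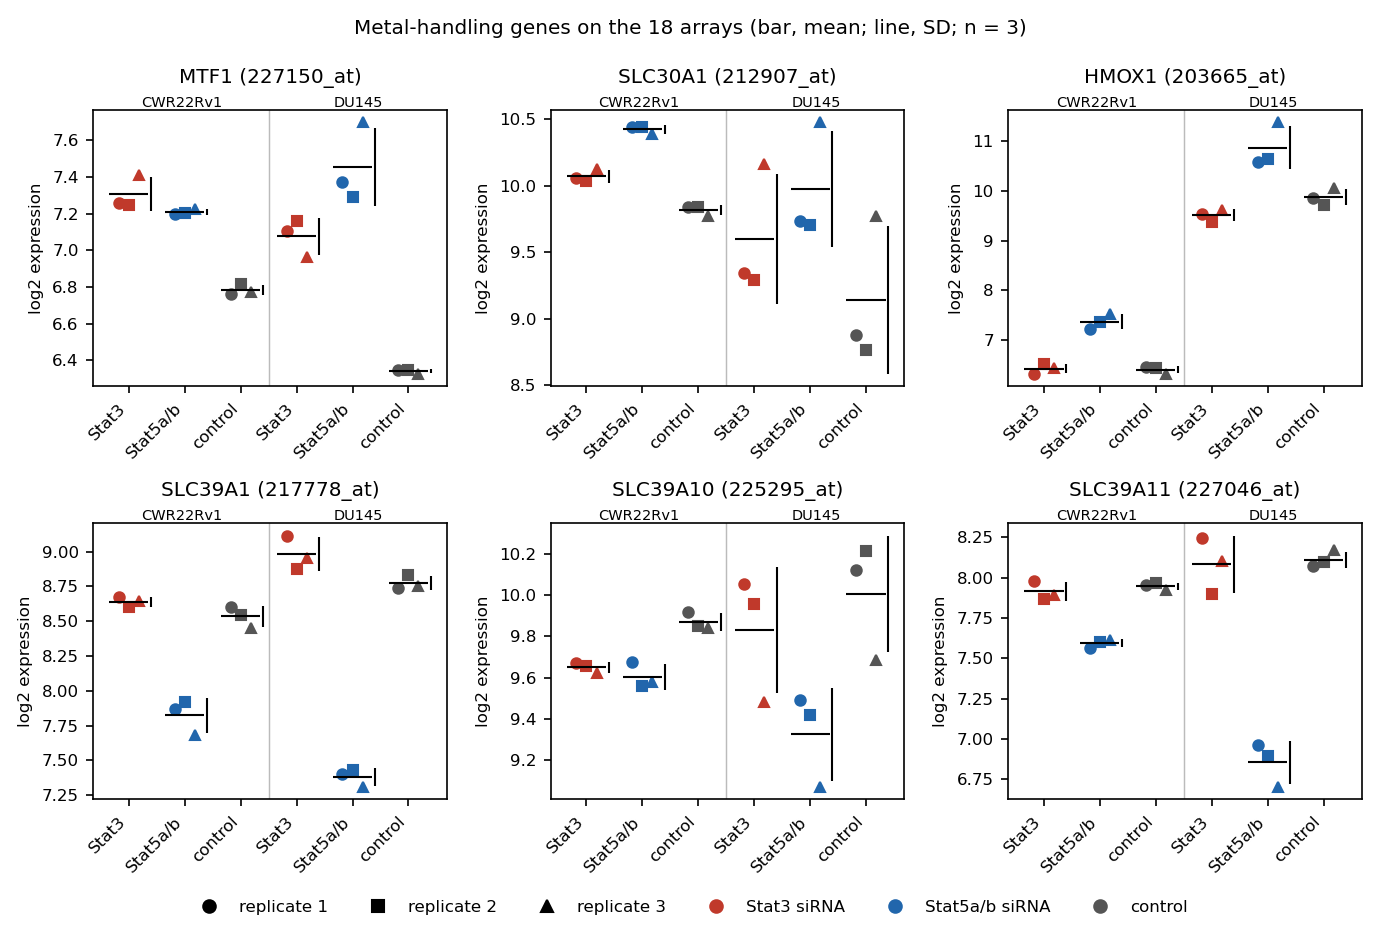
Log2 expression of 6 genes of metal handling on every array, with CWR22Rv1 at the left and DU145 at the right of each panel and Stat3 siRNA, Stat5a/b siRNA and control in that order (bar, mean of 3 arrays; line, SD; symbols, replicate number). MTF1 lies above control in all 4 siRNA groups, SLC39A1 and SLC39A11 lie below control with Stat5a/b siRNA in both lines, and SLC30A1 shows the high DU145 replicate 3 of the metallothioneins.

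Genes of metal and oxidant stress, 6 of which were measured, were called in both directions with siRNA. In DU145, 4 were higher and 2 lower with Stat5a/b siRNA, against 15.6% of all probe sets called: SRXN1, which repairs oxidised peroxiredoxins, rose by 1.02, the cystine transporter SLC7A11 rose by 0.74 and the chaperone DNAJB1 fell by 0.50. HMOX1, which degrades haem, had 10.59, 10.65 and 11.38 with Stat5a/b siRNA in DU145, against 9.86, 9.72 and 10.06 in controls, a rise of 0.99 (adjusted p = 3.25e-04, limma). With Stat3 siRNA in DU145, 0 rose and 2 fell, against 9.02%: SLC7A11 by 0.60 and GCLM, a subunit of the glutathione-synthesis enzyme, by 0.24. The replicate block added DNAJB1 there, at -0.20 (adjusted p = 0.048). In CWR22Rv1, 0 were called with Stat3 siRNA, against 2.00%, while with Stat5a/b siRNA HMOX1 rose by 0.97, and TXNRD1 and SLC7A11 fell by 0.44 and 0.41, against 3.10% called. SLC7A11 was thus called lower in CWR22Rv1 and higher in DU145 with that siRNA, and the interaction was -1.15 (adjusted p = 3.80e-04).

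Copper-handling genes, 9 in the list, were called in both directions. With Stat3 siRNA in DU145 the copper importer SLC31A1 rose by 0.42 and COMMD1 by 0.25, and the copper chaperone ATOX1 fell by 0.26, 3 of 9 against 9.02% of all probe sets. With Stat5a/b siRNA, 2 were higher and 2 lower, against 15.6%, among them SLC31A1 (up by 0.37), CCS (down by 0.29) and COMMD1 (down by 0.21). In CWR22Rv1 the calls were COMMD1 with Stat3 siRNA (up by 0.27), against 2.00%, and SLC31A2 with Stat5a/b siRNA (up by 0.41), against 3.10%.

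Of 7 measured glucocorticoid-induced genes, 3 were higher and 1 lower with Stat5a/b siRNA in DU145, against 15.6% of all probe sets called: TSC22D3 rose by 0.44 and SGK1 by 0.85, and FKBP5 fell by 0.35. With Stat3 siRNA, TSC22D3 fell by 0.30 and no other was called, against 9.02%. The replicate block added SGK1 there, at 0.44 (adjusted p = 0.046). In CWR22Rv1, 0 were called with Stat3 siRNA, against 2.00%, and DUSP1 rose by 0.76 with Stat5a/b siRNA, against 3.10%.

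The genes whose pattern was most like the mean of the 9 probe sets, by Pearson r over 18 arrays after subtracting each line's mean and outside the metallothioneins, were SLC30A1 (r = 0.93), EEF1A1 (0.91), MAP7D2 (0.90), GPR27 (0.89) and UMPS (0.88). SLC30A1 kept r = 0.96 among the DU145 arrays and 0.85 among the CWR22Rv1 arrays. UMPS had 0.92 in DU145 and 0.13 in CWR22Rv1. The high DU145 replicate 3 enters these values as well. EEF1A1, MAP7D2 and UMPS were not called with either siRNA in DU145. MAP7D2 was dim, with 3.10, 3.10 and 4.15 in DU145 controls. The sizes of the swings differed: EEF1A1 ran from 13.80 to 13.91 in DU145 controls, whereas SLC30A1 ran from 8.77 to 9.78 there.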

How the data were processed

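Total RNA of 18 samples was measured on Affymetrix U133 Plus 2.0 arrays. Each deposited table column holds log2 expression by probe set. RMA, which corrects background, quantile-normalises arrays and summarises probes, and limma are named in the submitters' processing notes, with no version. As deposited, log2 levels spanned 1.54 to 14.3, array medians 5.16 to 5.20, and no further scaling was applied. Scan dates and detection calls were not used here, so how far a value lies above background is unknown, and the 3 arrays per group limit the precision.

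Of 54675 probe sets, 62 control probe sets were left out. Gene symbols came from the platform annotation: 41091 probe sets had 1 symbol, 1801 several and 11721 none, and the Entrez identifiers were checked against RefSeq. limma 3.58.1 under R 4.3.3 (lmFit, eBayes, 12 residual and 4.49 prior degrees of freedom) fitted 1 mean per group to all 18 arrays and all 54613 probe sets. In each of the 9 comparisons the two-sided p-values were adjusted by Benjamini and Hochberg's method, with a threshold of 0.05. The fitting script was tested on simulated data.

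The members, gene lists and tests were chosen with earlier results of these data known. Text genes were every member probe set, the siRNA targets, MTF1, SLC30A1, up to 3 called genes per list and siRNA comparison by smallest adjusted p (1 probe set per gene, the one with the highest mean), and the 5 genes most like the members. MT1E, MT1HL1, MT3 and MT4 are shown as other members of the family, and control genes as checks. HMOX1 was named through CWR22Rv1.

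Replicate numbers were held to pair samples where every same-numbered pair's deviations from the group means correlated above 0.1. This held for Stat3 siRNA against control in DU145 (0.14, 0.19, 0.39), by the data and not by a label, and for no other comparison of siRNAs within a line. There Stat3 replicate 2 and control replicate 1, which differ in number, also reached 0.14. The block was fitted to all arrays of both lines, including groups whose numbers were not held to pair. Alternatives were quantile normalisation, median centring, a filter on dim probe sets, 1 probe set per gene, a trended variance prior, each line fitted alone, the replicate block, leaving out each array, and, added after seeing the data, no replicate 3 in DU145 and each line alone with the block. Sequences were RefSeq's, of GRCh38.p14.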

Additional observations from a re-analysis of the deposited data

How the results depend on the processing

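No member reversed a called direction under any alternative. Counts of called member probe sets were the same under quantile normalisation, median centring and the trended variance prior, but for 9 against 8 in the control comparison under quantile normalisation. With Stat3 siRNA in DU145 (1 called), 1 probe set per gene gave 2, DU145 alone 0, the replicate block 7, DU145 alone with the block 4, no replicate 3 in DU145 8, and leaving out single arrays 1 to 5. With Stat5a/b siRNA in DU145 (3 called), the same gave 0 alone, 6 with the replicate block, 5 alone with the block, 7 without replicate 3 and 0 to 6 without single arrays; the numbers did not pair these samples. With either siRNA in CWR22Rv1 (0 called), the line fitted alone gave 1 each, and leaving out single arrays 0 to 0. Between siRNAs in DU145 (1 called), the filter on dim probe sets gave 0 because it removes MT1M, the replicate block 2, DU145 alone with the block 2, no replicate 3 gave 3, and leaving out single arrays 1 to 2; in CWR22Rv1 every setting gave 0. The Stat3 interaction (0 called) gave 1 with the replicate block, 4 without replicate 3 and 0 to 0 without single arrays, and the Stat5a/b interaction (0 called) gave 5 and 0 to 2. The control comparison (8 called) gave 8 to 9 without single arrays; a block within each line cannot be fitted to it. Over single members, 56 values under alternatives became called and 13 lost their call. The cause was not tested. The arrays' signal over background is unknown, which limits MT1M in CWR22Rv1 and MT1G 210472_at most.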
